A study of Mus musculus with 20 samples.

Results

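Transcripts of voltage-gated sodium channel genes were measured in dorsal root ganglion (DRG) neurons of the mouse, grown in culture, on two-colour Agilent arrays, glass slides on which fluorescent RNA copies bind to short DNA probes. The 9 genes are those of a fixed list of names, 6 for pore-forming subunits (Scn1a, Scn3a, Scn8a, Scn9a, Scn10a and Scn11a) and 3 for auxiliary beta subunits (Scn2b, Scn3b and Scn4b), out of 30222 gene names on the array. The rule that picks their probes uses the gene names alone, although earlier results of these data were known when the list was made. Together they have 16 probes, and each gene had at least 1 probe that was bright and even enough for the main test in all 20 samples.

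The neurons came from mouse embryos of 13.5 days, were kept with 100 ng/ml nerve growth factor for 3 to 4 weeks in chambers with side compartments, and were treated with fluorodeoxyuridine for 5 days to stop non-neuronal cells from dividing. There were 5 conditions with 4 samples each. Controls were unstimulated. Stimulated neurons fired bursts of 18 action potentials every 1 min (18/1) or of 90 every 5 min (90/5), so that both patterns gave the same mean rate, for 2 hr or for 5 hr, through 6 V pulses of 0.2 ms. The methods describe 5 pooled cultures per condition and an overnight period without serum and nerve growth factor before stimulation. The labels name the spinal cord as the source of the dissociated cells, while the cultures are called DRG cultures. Of 10 sensory neuron markers 9 passed the spot filter, among them Prph, Nefl and Calca, against 0 of 3 motor neuron markers and 0 of 3 astrocyte markers. Chat and Mnx1, which define motor neurons, met its rule in 6 and 4 of 20 samples, but Isl2 met it in 19. Of the astrocyte markers Gfap, Aqp4 and Slc1a2 met it in 14, 7 and 1 samples. Some of these markers were higher on slide 2, as given beside Scn8a.

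Voltage-gated sodium channels open when the membrane depolarizes and carry the inward current of the action potential. A single large alpha subunit forms the pore, and beta subunits tune its gating and its anchoring in the membrane. Sensory neurons are known for a mixed set: Scn9a, Scn10a and Scn11a encode the channels typical of nociceptors, of which the last pair resists tetrodotoxin, Scn8a and Scn1a encode the channels of nodes and of larger, faster neurons, and Scn3a is the channel of embryonic and injured neurons. The comparisons ask whether the time pattern of firing, and not only its amount, changes which channels are made.

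Each array compared a pair of samples from 1 condition, in Cy3 and Cy5, and the 10 arrays lay on 3 slides. Slide 1 carried unstimulated and 18/1 2 hr samples, slide 2 carried 18/1 5 hr and 90/5 2 hr samples, and slide 3 carried 90/5 5 hr samples. Only 18/1 2 hr against unstimulated and 90/5 2 hr against 18/1 5 hr are therefore comparisons within a slide, and in all others slide and condition cannot be told apart. Slide 2 was brighter, with a median spot signal of 136 to 491 against 77.2 to 221 on the others, and 0.105% to 34.0% of its spots were marked non-uniform against at most 0.198% elsewhere. Array 5, of 18/1 5 hr, had the most such spots. Stimulation itself was visible in every stimulated condition. Nr4a1, an activity-induced transcription factor, stood 21.5-fold to 45.2-fold above unstimulated neurons, and Rgs2, a regulator of G protein signalling, 9.64-fold to 15.6-fold.

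For Scn8a and Scn1a the probes of 1 gene gave different answers, so the probe sequences are part of the result. They are printed 5′ to 3′ with their positions in the mouse build of the array files, mm9. The other pair of Scn8a probes and both Scn1a probes are shown whole, and each has at least 1 reading frame without a stop codon.
Scn8a probe A_55_P2072339 (chr15:100766904-100766963, plus strand): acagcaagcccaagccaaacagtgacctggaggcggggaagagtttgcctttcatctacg
Scn8a probe A_55_P2072333 (chr15:100848863-100848922, plus strand): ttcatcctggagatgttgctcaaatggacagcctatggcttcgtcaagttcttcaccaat
Scn1a probe A_55_P2138761 (chr2:66111022-66111081, minus strand): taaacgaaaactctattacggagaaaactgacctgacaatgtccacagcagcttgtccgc
Scn1a probe A_55_P2138769 (chr2:66173498-66173557, minus strand): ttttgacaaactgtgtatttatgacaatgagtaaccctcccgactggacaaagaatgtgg
The remaining Scn8a probe, A_55_P2057132 (chr15:100875702-100875761, plus strand), is the brightest of the gene and stands for it below. It lies farther along the gene than the other pair and has 0 reading frames without a stop codon, as has Scn3a probe A_55_P2119772. Whether any of the probes lies in the coding part of its gene was not determined. Scn8a probe A_55_P2057132 holds the following repeat, which is in capitals because its 16 bases are the feature that sets this probe apart from the other 15.
Scn8a probe A_55_P2057132, repeat only: TGTGTGTGTGTGTGTG

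Scn8a, which encodes the NaV1.6 channel of nodes of Ranvier and axon initial segments, gave the largest differences of the 9 genes. All values are normalized log2 intensities, so that 1 unit is a doubling. In unstimulated neurons probe A_55_P2057132 read 10.77, 11.66, 10.65 and 11.25 in replicates 1 to 4. In 18/1 2 hr samples it read 10.37, 11.40, 10.97 and 11.23, and in 90/5 5 hr samples 10.41, 11.17, 10.34 and 11.33. These 12 samples overlapped. In 18/1 5 hr samples it read 14.73 and 14.74 in the colours Cy3 and Cy5 of array 5, and 13.08 and 14.08 in those of array 6. In 90/5 2 hr samples it read 12.92 and 14.10 on array 7, and 13.97 and 14.64 on array 8. All 8 samples of slide 2 thus lay above all 12 samples of slides 1 and 3, with a gap of 1.26 between the closest pair.

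The means were 11.08 ± 0.46 (SD, n = 4) in unstimulated neurons, 14.16 ± 0.78 at 18/1 5 hr and 13.91 ± 0.72 at 90/5 2 hr. Scn8a was therefore 8.45-fold higher at 18/1 5 hr than in unstimulated neurons (log2 difference 3.08 ± 0.36 SE, limma adjusted p = 3.33e-06) and 7.10-fold higher at 90/5 2 hr (2.83 ± 0.36, adjusted p = 4.65e-05). At 90/5 5 hr it was 10.2-fold lower than at 18/1 5 hr (-3.35 ± 0.36, adjusted p = 8.89e-07) and 8.55-fold lower than at 90/5 2 hr (-3.10 ± 0.36, adjusted p = 7.77e-06). Among 11952 probes tested, 55 rose more than this one at 18/1 5 hr and 38 rose more at 90/5 2 hr.

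The 6 comparisons in which Scn8a passed the test are those that set slide 2 against another slide. Within slide 1, 18/1 2 hr differed from unstimulated neurons by -0.09 ± 0.36 (95% interval -0.83 to 0.66, adjusted p = 1.00). Within slide 2, 90/5 2 hr differed from 18/1 5 hr by -0.25 ± 0.36 (-0.99 to 0.49, adjusted p = 0.663). The order of the 5 means was 18/1 5 hr, 90/5 2 hr, unstimulated, 18/1 2 hr and 90/5 5 hr, and of the neighbours in it only 90/5 2 hr and unstimulated neurons differed beyond their spread. The spot was saturated in 1 sample of each high condition, where the true level may be higher than measured.

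**Figure D1:**
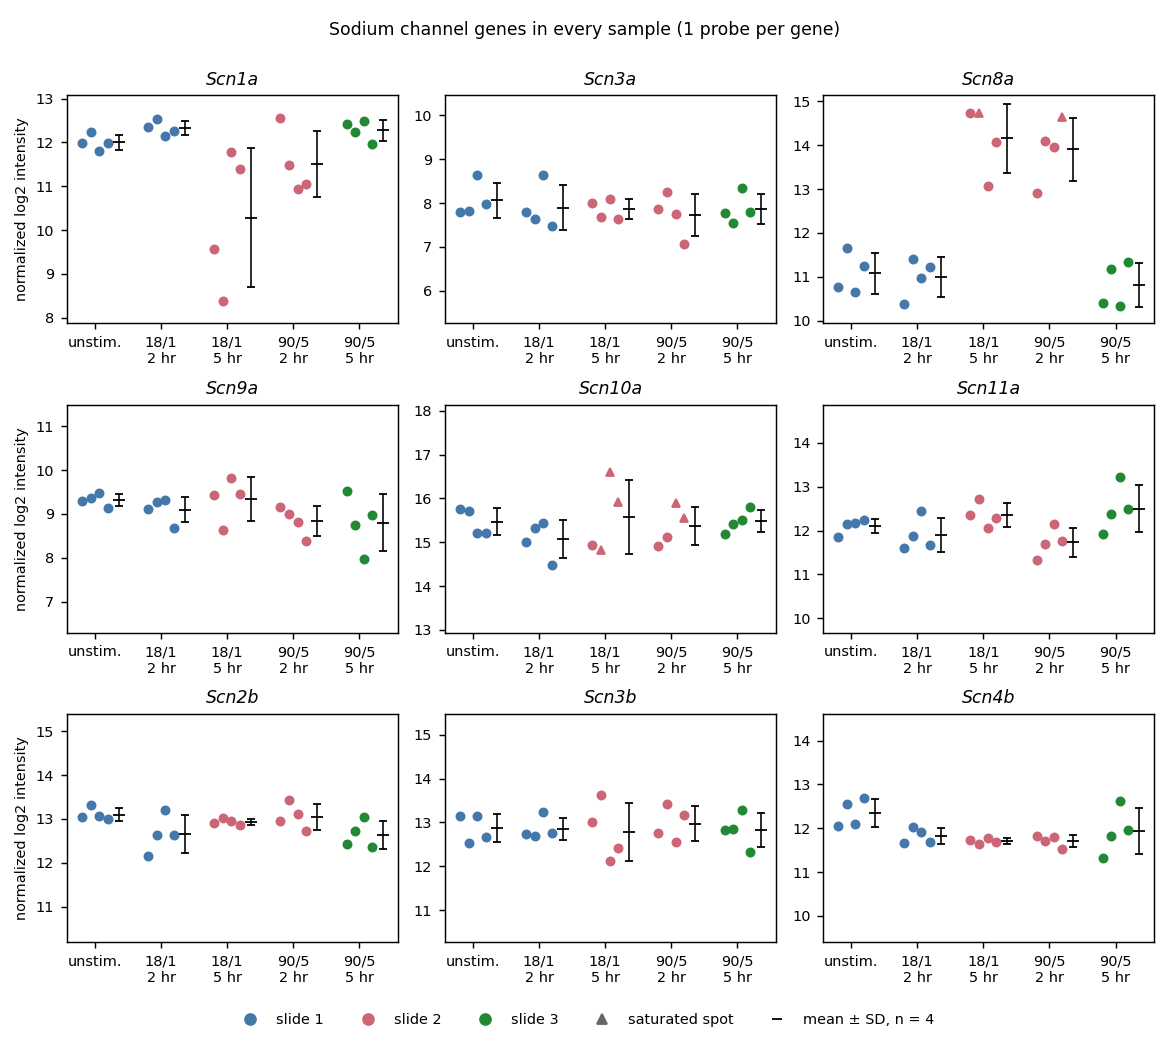
Normalized log2 intensity (vertical axes, each spanning 5.2 units) of the representative probe of each sodium channel gene in every sample, by condition (horizontal axes), with points coloured by slide, triangles for saturated spots, and the mean ± SD of 4 samples beside each group. Scn8a separates the 8 samples of slide 2 (12.92 to 14.74) from the other 12 (10.34 to 11.66), Scn1a is lowest in the 2 samples of array 5, and the other genes overlap between most conditions.

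The other pair of Scn8a probes did not show this difference. Probe A_55_P2072339 read 6.97 ± 0.16 in unstimulated neurons, 6.86 ± 0.11 at 18/1 5 hr and 7.06 ± 0.17 at 90/5 2 hr (SD, n = 4). Its differences from unstimulated neurons were -0.11 ± 0.20 SE (95% interval -0.53 to 0.31) and 0.09 ± 0.20 (-0.33 to 0.51). Probe A_55_P2072333 read 6.88 ± 0.06 in unstimulated neurons, 6.34 ± 0.10 at 18/1 5 hr and 6.60 ± 0.23 at 90/5 2 hr. It was lower at 18/1 5 hr than at 18/1 2 hr (-0.62 ± 0.21, adjusted p = 0.0410, in a fit where 25% of all probes passed), and its difference from unstimulated neurons was -0.54 ± 0.21 (adjusted p = 0.0680). This probe was well above background in 0 samples at 18/1 5 hr and 2 at 18/1 2 hr, so that its differences are not exact. Both probes are dim: they were well above background in 11 and 4 of 20 samples and passed the filter in all 4 samples of no condition. Their values therefore come from the fit without a filter and can hide a change of a weak transcript. The probes of Scn8a thus disagree, and the call of the gene rests on A_55_P2057132.

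**Figure D2:**
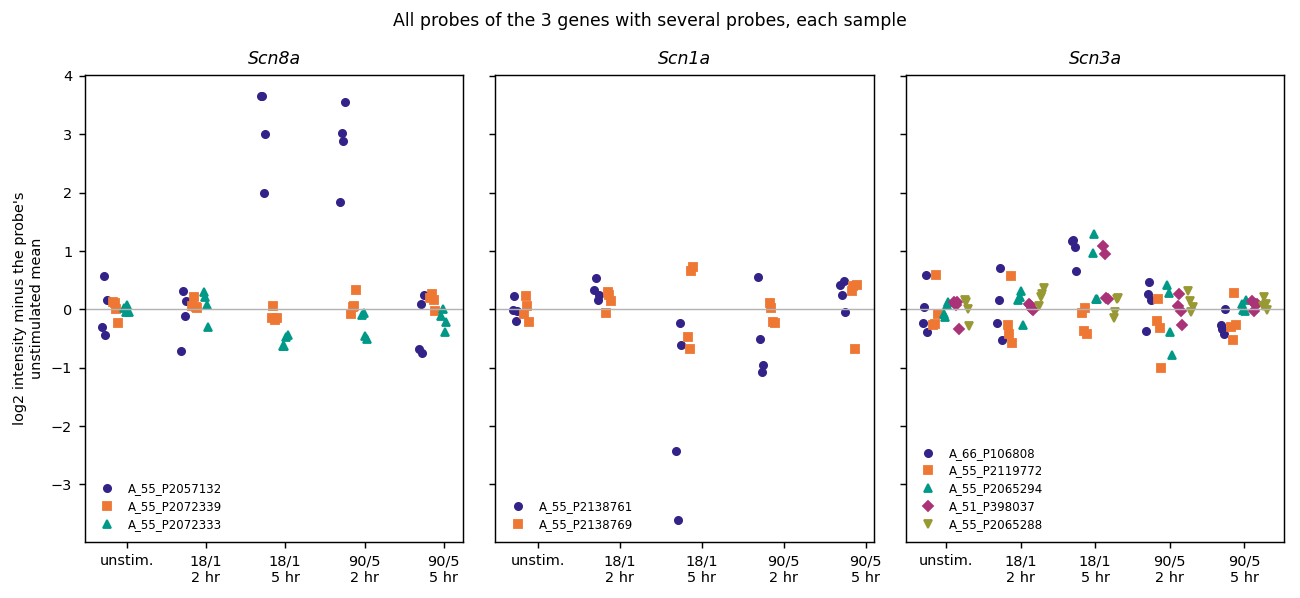
Log2 intensity of each probe in each sample minus that probe's mean in unstimulated neurons (vertical axis, log2 units), by condition, for the 3 genes with several probes, with 1 symbol and colour per probe. For Scn8a only A_55_P2057132 rises on slide 2, for Scn1a both probes are low on array 5 but only A_55_P2138761 has a lower mean at 18/1 5 hr, and for Scn3a 3 of the 5 probes are about 1 unit higher in the 2 samples of array 5.

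The repeat in A_55_P2057132 was set beside all probes tested, with a repeat counted where at least 10 bases alternate T with G or C with A (a minimum chosen after the values were seen). In 388 of the 11952 probes tested, 3.25%, all 8 samples of slide 2 lay above all 12 others. Among the 114 probes with a repeat of T and G this held for 70 probes (61.4%), each from a different gene name. Among the 32 probes with the complementary repeat of C and A it held for 0. The mean of slide 2 minus that of slides 1 and 3 had a median of 1.64 log2 units over the probes with a T and G repeat, -0.51 over those with a C and A repeat, and -0.17 over all probes tested. For the Scn8a probe the means were 14.03 and 10.96. With a minimum of 16 bases, the length in the Scn8a probe, 41 of 68 probes with a T and G repeat lay above on slide 2. None of the other member probes had a repeat longer than 5 bases. Some of the listed astrocyte and motor neuron markers were also high on slide 2, as levels with no test, since they did not pass the filter. Aqp4, the water channel of astrocytes, read 7.29 ± 0.16 in unstimulated neurons, 10.21 ± 0.89 at 18/1 5 hr and 8.55 ± 0.90 at 90/5 2 hr (SD, n = 4). Slc1a2 read 6.45 ± 0.14, 7.78 ± 0.56 and 7.39 ± 0.97 in the same order. Isl2, which the paper lists in a gene network of these DRG cultures at 18/1 5 hr, read 11.89 ± 0.17, 12.95 ± 0.17 and 12.61 ± 0.40. Chat read 6.97 ± 0.24, 8.15 ± 1.32 and 7.22 ± 0.14, whereas Gfap read 7.57 ± 0.37, 6.81 ± 0.24 and 7.28 ± 0.15 and Mnx1 6.59 ± 0.12, 6.43 ± 0.09 and 6.40 ± 0.14. The parts of the repeat and of these cells in the difference of Scn8a were not tested, and slide and condition cannot be told apart for it.

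**Figure D3:**
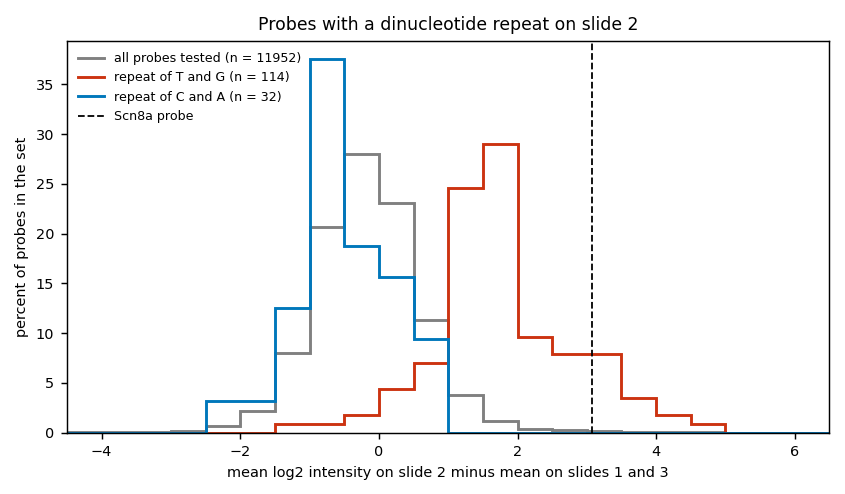
Distribution of the difference between the mean log2 intensity on slide 2 and on slides 1 and 3 (horizontal axis, in steps of 0.5 log2 units) over all 11952 probes tested, the 114 with a repeat of T and G and the 32 with a repeat of C and A, as the percent of each set (vertical axis). The set with T and G is shifted to higher values (median 1.64 against -0.17 for all probes), and the dashed line marks the Scn8a probe.

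Scn1a, which encodes the NaV1.1 channel of large sensory neurons and some fast-conducting nociceptors, was lower after 5 hr of 18/1 stimulation on its brighter probe. Probe A_55_P2138761 read 11.99, 12.23, 11.81 and 11.98 in unstimulated replicates 1 to 4. It read 12.34, 12.54, 12.16 and 12.25 at 18/1 2 hr and 12.42, 12.24, 12.49 and 11.96 at 90/5 5 hr. These 12 samples stood within 1 unit of each other. At 18/1 5 hr it read 9.57 and 8.39 on array 5 but 11.77 and 11.39 on array 6. At 90/5 2 hr it read 12.56 and 11.49 on array 7 and 10.93 and 11.05 on array 8. The lowest values were those of array 5, and 7 of the 8 samples of slide 2 lay below the lowest of the 12 others (11.81).

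Scn1a was 3.30-fold lower at 18/1 5 hr than in unstimulated neurons (-1.72 ± 0.56 SE, limma adjusted p = 0.0164), 4.12-fold lower than at 18/1 2 hr (-2.04 ± 0.56, adjusted p = 0.00584) and 3.99-fold lower than at 90/5 5 hr (adjusted p = 0.00645). Without array 5 the first difference was -0.42 ± 0.38 (adjusted p = 0.402), the second -0.74 ± 0.38 (adjusted p = 0.135) and the third, as 90/5 against 18/1, 0.70 ± 0.38 (adjusted p = 0.154), so that each call rests on that array. The first call was also lost without array 1 (adjusted p = 0.105) or array 2 (0.0676), and the second without array 3 (0.0586). With all arrays, the first was lost too with no filter (adjusted p = 0.0782), with means of arrays (0.0646), with only the conditions compared (0.0804), with a trend on GC content removed (0.0809) and with the methods' t-test after adjustment (0.0937). Within slide 2, Scn1a was 1.23 ± 0.56 higher at 90/5 2 hr than at 18/1 5 hr, which missed the threshold (adjusted p = 0.139) and became -0.07 ± 0.38 without array 5. It passed the threshold without array 6 (2.53 ± 0.43, adjusted p = 0.000352) or array 8 (1.75 ± 0.66, adjusted p = 0.0474), where 34.9% and 35% of all probes passed. It also passed with centring on medians alone, where 47.3% of all probes passed. The second probe, A_55_P2138769, read 8.10 ± 0.19 in unstimulated neurons and 8.16 ± 0.73 at 18/1 5 hr (SD, n = 4), a difference of 0.05 ± 0.40 SE (95% interval -0.78 to 0.89). On array 5 it read 7.63 and 7.43, below all unstimulated samples (7.89 to 8.33), and on array 6 it read 8.75 and 8.82, above them. Its mean thus hides a split between the arrays, but the spot at 8.82 was marked non-uniform. A value of 7.43 was also read in 90/5 5 hr replicate 3, so that a low reading of this probe is not particular to array 5.

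Of 5 fibroblast markers 4 passed the filter (Col1a1, Col1a2, Col3a1 and Dcn). At 18/1 5 hr 1 of the 4, the collagen gene Col1a1, was higher than in unstimulated neurons (1.79 ± 0.52 SE, limma adjusted p = 0.00810). Of all probes 45.1% passed there, and 14.5% were higher. At 90/5 5 hr 3 of the 4 were lower than at 18/1 5 hr, where 46.1% of all probes passed and 1834 of 11952 were lower. These were Col1a1 (-1.81, limma adjusted p = 0.00747), Col3a1 (-1.22, 0.0309) and Dcn (-1.17, 0.0305). Scn8a and Scn1a passed in that comparison too. Col1a1 was also higher at 18/1 5 hr than at 18/1 2 hr (limma adjusted p = 0.0325), where 45.1% of all probes passed and 1776 of 11952 were higher. None of the 4 passed in the other comparisons. The summed level of the 4 markers was 16.02 to 16.21 log2 units at 18/1 5 hr against 14.06 to 15.43 in unstimulated neurons. It was 14.76 to 15.74 at 18/1 2 hr, 14.35 to 16.30 at 90/5 2 hr and 14.35 to 15.43 at 90/5 5 hr. Col1a1 was saturated in 5 samples, so that these values are not exact. Of the sensory neuron markers Prph, Nefl, Nefm and Calca were saturated in 12 of 20 samples, Uchl1 in 11 and Tubb3 in 8, so that their summed level cannot show whether neuronal RNA changed. Of 7 glial markers S100b alone passed, at 14.85 to 16.34 at 18/1 5 hr and 16.02 to 16.15 in unstimulated neurons and saturated in 11 samples, while Mbp and Sox10 met the rule in 18 samples. Of 4 macrophage markers Aif1 alone passed, at 9.37 to 10.02 and 9.82 to 10.28. The part of these cells in the channel values was not tested, and in bulk RNA fewer cells of a type and less RNA per cell cannot be told apart.

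Scn3a encodes NaV1.3, the channel of embryonic neurons that returns after nerve injury. Its 5 probes differed in strength, from well above background in 20 samples (A_66_P106808) to 0 samples (A_55_P2065288). The one that passed in all samples, A_55_P2119772, read 8.06 ± 0.40 in unstimulated neurons, 7.89 ± 0.51 and 7.85 ± 0.23 after 2 hr and 5 hr of 18/1, and 7.73 ± 0.49 and 7.86 ± 0.35 after 2 hr and 5 hr of 90/5 (SD, n = 4). The groups overlapped and no comparison passed (lowest limma adjusted p = 0.602). The brighter A_66_P106808 passed in 17 samples and read 9.76, 9.79, 9.66 and 9.25 at 18/1 5 hr, against 8.20 to 9.18 in unstimulated neurons and 8.18 to 8.61 at 90/5 5 hr. In the fit that asks for the filter in at least 1 condition it was 2.41-fold lower at 90/5 5 hr than at 18/1 5 hr (-1.27 ± 0.49 SE, adjusted p = 0.0472, where 38.3% of all probes passed) and did not pass against unstimulated neurons (1.02 ± 0.49, adjusted p = 0.108). Its array 5 spots were marked non-uniform in both colours. Probes A_55_P2065294 and A_51_P398037 were also highest on array 5, at 8.25 and 8.57 and at 7.55 and 7.42, with the same mark on those spots. The probe A_55_P2065288 was well above background in 0 samples. The probes of Scn3a thus disagree at 18/1 5 hr.

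Scn10a, which encodes the tetrodotoxin-resistant channel NaV1.8 of nociceptors, did not pass in any of the 10 comparisons of the main fit. It read 15.76, 15.71, 15.20 and 15.21 in unstimulated neurons, 15.01, 15.33, 15.44 and 14.47 at 18/1 2 hr, and 15.19, 15.42, 15.51 and 15.81 at 90/5 5 hr. At 18/1 5 hr it read 14.94 and 14.83 on array 5 and 16.60 and 15.91 on array 6, and at 90/5 2 hr 14.92, 15.11, 15.89 and 15.56. Every condition overlapped every other. The differences from unstimulated neurons lay between -0.40 ± 0.40 SE (18/1 2 hr, 95% interval -1.24 to 0.43) and 0.10 ± 0.40 (18/1 5 hr, -0.74 to 0.94). With centring on medians alone the 18/1 5 hr difference turned to -0.94 ± 0.37 (adjusted p = 0.0346) and that of 90/5 from 18/1 at 5 hr went from -0.09 to 1.14 (adjusted p = 0.0109), where 53.3% and 58.4% of all probes passed. With weights for array quality the difference at 18/1 2 hr, within slide 1, was -0.81 ± 0.22 (adjusted p = 0.0213), in a fit that called 14.6% of all probes there against 0.0167% without weights. With these weights 90/5 5 hr also stood above 18/1 2 hr by 0.72 (adjusted p = 0.0270), where 12.9% of all probes passed. The spot was saturated in 5 samples, all on slide 2. The difference of 18/1 5 hr from 18/1 2 hr was 0.50 ± 0.40 (adjusted p = 0.320). Without array 5 it was 1.19 ± 0.38 (adjusted p = 0.020, with 36.5% of all probes called), but both spots then left at 18/1 5 hr were saturated, so that this is no exact value.

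Scn11a encodes NaV1.9, the other tetrodotoxin-resistant channel, whose persistent current sets the resting excitability of nociceptors. It read 11.86, 12.15, 12.17 and 12.23 in unstimulated neurons, 11.61, 11.89, 12.45 and 11.66 at 18/1 2 hr, and 12.37, 12.71, 12.05 and 12.29 at 18/1 5 hr. At 90/5 2 hr it read 11.33, 11.69, 12.16 and 11.76, and at 90/5 5 hr 11.91, 12.37, 13.22 and 12.50. The 90/5 samples had the lowest mean at 2 hr (11.73 ± 0.34 SD) and the highest at 5 hr (12.50 ± 0.54), with overlap. This rise of 0.77 ± 0.36 SE (95% interval 0.02 to 1.52) had a limma adjusted p of 0.208, and of 0.0338 without the array as a block, where 22.2% of all probes passed. No neighbours in the order of its means differed beyond their spread, and against unstimulated neurons the differences lay between -0.37 ± 0.36 and 0.40 ± 0.36. With weights for array quality 90/5 5 hr stood above 18/1 2 hr by 0.67 ± 0.16 (adjusted p = 0.00848) and 18/1 5 hr by 0.74 ± 0.31 (adjusted p = 0.0489), where 12.9% and 53.1% of all probes passed. Within slide 2, 90/5 2 hr differed from 18/1 5 hr by -0.62 ± 0.36 in the main fit (limma adjusted p = 0.246). That difference passed with the methods' t-test before adjustment, for which the share of all probes is not given here. With limma, 31.25% of all probes had an unadjusted p under 0.05 in this comparison.

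Scn9a encodes NaV1.7, the tetrodotoxin-sensitive channel that amplifies small depolarizations in nociceptor endings. It read 9.13 to 9.47 in unstimulated neurons, 8.68 to 9.33 at 18/1 2 hr, 8.64 to 9.82 at 18/1 5 hr, 8.37 to 9.16 at 90/5 2 hr and 7.96 to 9.52 at 90/5 5 hr. All ranges overlapped. Under 90/5 it stood -0.48 ± 0.40 SE from unstimulated neurons at 2 hr (95% interval -1.31 to 0.35) and -0.52 ± 0.40 at 5 hr (-1.35 to 0.31), and its lowest limma adjusted p over the 10 comparisons was 0.280. With weights for array quality the 90/5 5 hr difference was -0.49 ± 0.16 (adjusted p = 0.0309), where 25.4% of all probes passed against 0.0586% without weights. In the main fit the intervals of Scn9a, Scn10a and Scn11a against unstimulated neurons reach changes of about 1 log2 unit in either direction. With 4 samples on 2 arrays that fit could therefore miss smaller changes.

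The beta subunits, single-pass proteins that resemble cell adhesion molecules, did not pass in any comparison of the main fit. Scn4b, whose subunit is linked to resurgent current, read 12.05, 12.55, 12.10 and 12.68 in unstimulated neurons. It read 11.66 to 12.03 at 18/1 2 hr, 11.64 to 11.78 at 18/1 5 hr, 11.53 to 11.83 at 90/5 2 hr and 11.32 to 12.61 at 90/5 5 hr. All samples of the first 3 stimulated conditions lay below all unstimulated samples, and those of 90/5 5 hr overlapped them. At 18/1 5 hr and 90/5 2 hr, both on slide 2, 3664 and 369 of 11952 probes passed as lower than in unstimulated neurons. How many of all probes separate as Scn4b did was not counted. The differences were -0.53 ± 0.32 SE, -0.64 ± 0.32, -0.63 ± 0.32 and -0.42 ± 0.32, with limma adjusted p of 1.00, 0.109, 0.248 and 1.00. The comparison within slide 1, at 18/1 2 hr, passed with weights for array quality (-0.72 ± 0.16, adjusted p = 0.00764), and the 90/5 5 hr difference passed with them too (-0.70 ± 0.13, adjusted p = 0.000625), where 14.6% and 25.4% of all probes passed. Without the array as a block the differences at 18/1 5 hr (adjusted p = 0.0158) and 90/5 2 hr (0.0423) passed, as did 59.9% and 22% of all probes. The 18/1 5 hr difference was -1.26 ± 0.34 with centring on medians alone (adjusted p = 0.00299, 53.3% of all probes called) and turned to 0.39 ± 0.29 with a trend on probe GC content removed (adjusted p = 0.302). The difference of 90/5 from 18/1 at 5 hr likewise passed as 1.05 with the former (58.4%) and as -0.90 with the latter (34.5%), and 18/1 5 hr passed against 18/1 2 hr as 0.86 with the latter (36.3%). Within slide 2, 90/5 2 hr was 0.82 ± 0.34 above 18/1 5 hr with centring on medians (adjusted p = 0.0471, 47.3%). The 4 comparisons share the unstimulated samples.

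Scn2b, a subunit that is linked to the alpha subunit by a disulfide bond, had a mean of 13.10 ± 0.14 in unstimulated neurons (SD, n = 4), 12.66 ± 0.43 and 12.94 ± 0.07 after 2 hr and 5 hr of 18/1, and 13.06 ± 0.30 and 12.64 ± 0.31 after 2 hr and 5 hr of 90/5. Its differences from unstimulated neurons lay between -0.46 ± 0.32 SE and -0.05 ± 0.32. With weights for array quality it was lower at 18/1 2 hr (-0.71 ± 0.17, adjusted p = 0.0109) and at 90/5 5 hr (-0.56 ± 0.14, adjusted p = 0.00507), in the fits that called 14.6% and 25.4% of all probes. With a trend on probe GC content removed, 90/5 differed from 18/1 at 5 hr by -0.90 ± 0.31 (adjusted p = 0.0320, against -0.30 without), and 18/1 5 hr from 18/1 2 hr by 0.85 ± 0.31 (adjusted p = 0.0389, against 0.28), where 34.5% and 36.3% of all probes passed. Scn3b, a subunit without that bond, stayed between 12.79 ± 0.66 (18/1 5 hr) and 12.97 ± 0.39 (90/5 2 hr), and its differences from unstimulated neurons lay between -0.08 ± 0.42 and 0.10 ± 0.42. The samples of both genes overlapped between all conditions.

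**Figure D4:**
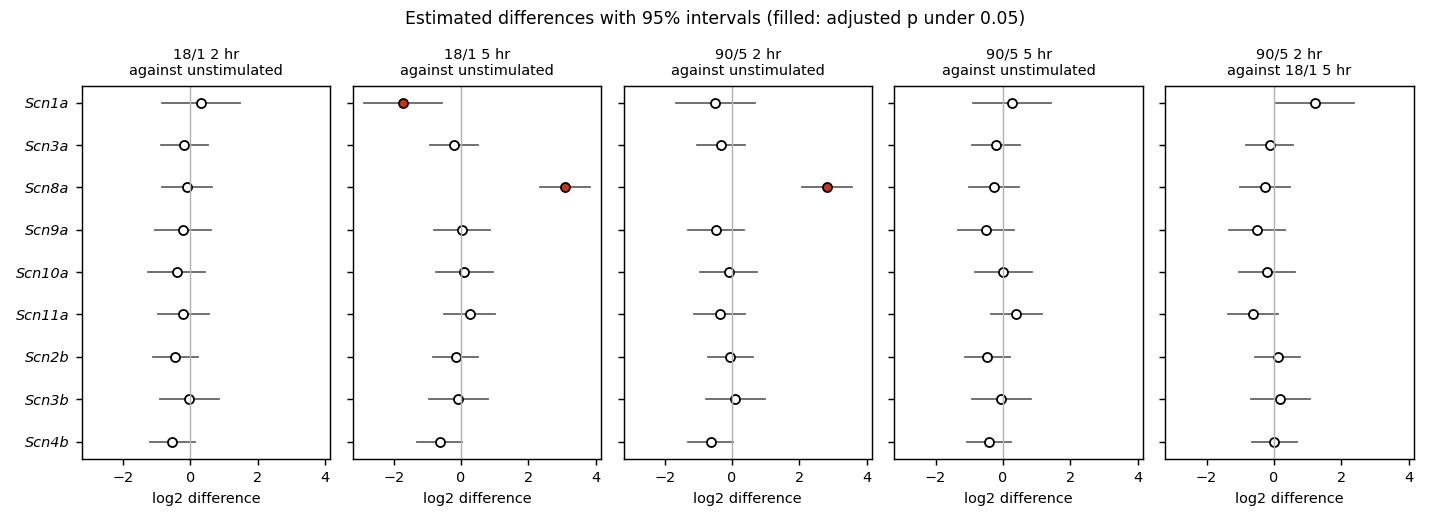
Log2 difference (horizontal axes) of the representative probe of each gene (rows) in 5 comparisons, with 95% intervals as lines and filled points for an adjusted p under 0.05. Scn8a is higher at 18/1 5 hr (3.08) and 90/5 2 hr (2.83) and Scn1a lower at 18/1 5 hr (-1.72) than in unstimulated neurons, while in the comparison of 90/5 2 hr with 18/1 5 hr, both on slide 2, no gene passes.

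Counted by comparison, 2 of 9 genes passed at 18/1 5 hr against unstimulated neurons (Scn8a higher, Scn1a lower), where 45.1% of all probes tested passed. At 90/5 2 hr 1 of 9 passed (Scn8a), where 6.18% of all probes passed. At 18/1 2 hr and at 90/5 5 hr 0 of 9 passed with limma, where 0.0167% and 0.0586% of all probes passed. At an unadjusted p under 0.05 it was also 0 of 9 in both, beside 0.837% and 3.36% of all probes. Between the patterns, 1 of 9 passed at 2 hr (Scn8a, background 4.74%) and 2 of 9 at 5 hr (Scn8a and Scn1a, 46.1%). Between the times, 2 of 9 passed within 18/1 (45.1%) and 1 of 9 within 90/5 (8.23%; 2 of 9 unadjusted, Scn8a and Scn11a, beside 22.8%). For 90/5 2 hr against 18/1 5 hr 0 of 9 passed (13.7%; 1 of 9 unadjusted, Scn1a, beside 31.25%), and for 90/5 5 hr against 18/1 2 hr 0 of 9 (0.0167%; 0 of 9 unadjusted, beside 2.54%). From unstimulated neurons the 9 genes differed by a median of -0.20 (18/1 2 hr), -0.08 (18/1 5 hr), -0.34 (90/5 2 hr) and -0.20 (90/5 5 hr), beside medians of -0.0033, -0.26, -0.09 and -0.0075 over all probes tested. With shares of 45.1% and 46.1% among all probes, 2 of 9 genes is no more than the background in the comparisons with 18/1 5 hr.

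Of 7 other names of sodium channel genes, 5 were on the array and 2 had a probe that passed the filter. Scn2a1, an older name for the gene of NaV1.2, was 1.78-fold higher at 18/1 5 hr than at 18/1 2 hr (0.83 ± 0.31 SE, limma adjusted p = 0.0342). In that comparison 45.1% of all probes passed, and 1776 of 11952 were higher. Scn4a and Scn7a, which encode the channel of skeletal muscle and a sodium-sensing channel, met the filter in 16 and 14 of 20 samples and were not tested.

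Of 22 partners and regulators of the channels, 21 were on the array and 11 were tested. At 18/1 5 hr 3 of 11 were higher than in unstimulated neurons and 0 were lower, where 45.1% of all probes passed and 14.5% were higher. Nrcam, an adhesion molecule of nodes of Ranvier, was 2.54-fold higher (1.35 ± 0.33 SE, limma adjusted p = 0.00236). Nedd4l, a ubiquitin ligase that removes sodium channels from the membrane, was 2.17-fold higher (1.12 ± 0.29, adjusted p = 0.00383). Atp1b1, a subunit of the sodium pump, was 1.89-fold higher (0.92 ± 0.35, adjusted p = 0.0351). The median of the 11 was -0.07, beside -0.26 over all probes tested. In the other comparisons with unstimulated neurons 0 of 11 passed. Within slide 2, Nrcam was 2.30-fold (-1.20 ± 0.33, adjusted p = 0.0213) and Atp1b1 2.06-fold (-1.04 ± 0.35, adjusted p = 0.0490) lower at 90/5 2 hr than at 18/1 5 hr, where 13.7% of all probes passed and 2.79% were lower. Nrcam was saturated in 4 samples and Atp1b1 in 6, so that their folds are not exact. Cntn1, which encodes the adhesion molecule contactin 1, S100a10 and Fgf13 passed in no comparison, and Cntn1 and S100a10 were saturated in 8 and 12 samples. Ank3, the ankyrin that anchors sodium channels at the axon initial segment, was below the filter in 1 of 20 samples and was not tested.

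The genes whose probes ran most like those of the nociceptor channels over the 20 samples are given as a description, since samples share arrays, slides and depth. For Scn9a they were Fmr1 (Pearson's r = 0.94), Ltn1 (0.87) and a transcript known only by the array's name NAP005004-001 (0.87). For Scn10a they were Rimkla (0.87, and 0.96 without array 5), App (0.84) and Arpc2 (0.82). For Scn11a they were Msl1 (0.91), 1700019N12Rik (0.88) and Prkca (0.88).

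Promoters, taken from RefSeq sequences of build GRCm38.p6 that span 250 bases before and 50 after a start site, were found for 7 of the 9 genes, 8 promoters in all. The letters TGACGTCA, bound by the activity-regulated factor CREB, were in none of the 8, and are in 1.79% of the 32851 promoters of the table. The shorter TGACG, read on both strands, was in the Scn10a promoter alone, 3 times, and is in 20.8% of all promoters. The 250 bases before the Scn10a start site, at chr9:119719033-119719282 on the minus strand, are shown because Scn10a alone of the 7 genes searched has this motif. TGACG or its complement CGTCA is in capitals, and likewise GCGTG.
Scn10a promoter: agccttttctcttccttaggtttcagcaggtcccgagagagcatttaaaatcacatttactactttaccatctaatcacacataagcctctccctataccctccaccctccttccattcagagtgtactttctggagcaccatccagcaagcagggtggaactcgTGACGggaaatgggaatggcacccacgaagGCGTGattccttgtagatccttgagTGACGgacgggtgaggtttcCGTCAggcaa
The letters GCGTG, on either strand, were also in both Scn8a promoters and the Scn4b promoter and are in 32.4% of all, and CACGTG was in none of the 8 and is in 7.15% of all. A match is a match of letters and no measure of binding, and Scn10a passed in no comparison of the main fit.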

How the data were processed

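Labelled RNA from 20 samples was hybridized to 10 arrays. The authors deposited, for each spot and colour, the mean intensity and a local background intensity (a median) on a linear scale, extracted with Agilent Feature Extraction 10.7.1.1 (slide 1) or 10.7.3.1 (slides 2 and 3) per the file headers, and not normalized. The deposited marks of spot quality were used, and the other columns of each colour were not used. The later of 2 probe annotations was used throughout, and 14 of the 16 member probes had the same gene name in the earlier. The labels do not settle the colour of each replicate of 18/1 5 hr and 90/5 2 hr, so these samples are named by array and colour. Samples of a condition were separate labelled samples from pooled cultures, so p-values measure the spread between these samples, which may be technical. The number of arrays limits the precision.

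With limma 3.58.1 in R 4.3.3, background was corrected with normexp (offset 50), colours were normalized within arrays by loess with control spots at weight 0, and arrays were scaled with Aquantile. Spots of a probe were averaged. Probes entered the test if every spot was at least 2 times its background and free of the non-uniform mark in all 20 samples (11952 of 39429). A linear model with a mean per condition, colour as a term and the array as a random block (correlation 0.536) was fitted to all samples, with empirical Bayes moderation and Benjamini-Hochberg adjustment within each of 10 comparisons at 0.05. A gene is represented by its brightest passing probe. Dimmer probes come from the same model on probes passing in 1 condition, or on all probes. The members, lists and tests were chosen with earlier results of these data known. All 9 members were named, other genes only from lists (other sodium channel genes, partners, 5 activity genes, cell type markers) or by likeness to Scn9a, Scn10a and Scn11a. Of the activity genes, Nr4a1, Egr1 and Rgs2 were tested and Fos and Npas4 were below the filter. Egr1 passed against unstimulated neurons at 90/5 2 hr and 90/5 5 hr only. Simulated data with 200 changed probes were used to test the model. The planned comparison with protein sequences was not made, and probe sequences are shown where they hold an open reading frame.

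Replicate numbers of unstimulated, 18/1 2 hr and 90/5 5 hr samples were checked for pairing by the correlation of deviations from group means. Alternatives were other background, normalization, filter, probe, colour, array, slide, weight, GC content and test choices, leaving out samples and arrays, and, chosen after seeing the data, leaving out probes with a repeat. The methods' t-test was run on linear values with unequal variances, a minimum fold change of 1.4 and an assumed fold limit of 1 plus 2 pooled coefficients of variability. Plots were made with matplotlib 3.10.9. Some members of the lists are not reported here.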

Additional observations from a re-analysis of the deposited data

Results flagged for a closer look

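The change from 2 hr to 5 hr differed between the patterns for 2 of the 9 genes, by a test of the difference itself (limma, adjusted over 11952 probes, of which 45.2% passed this test). For Scn8a the change under 90/5 minus that under 18/1 was -6.26 ± 0.50 SE on the log2 scale (adjusted p = 1.36e-08), and for Scn1a it was 2.81 ± 0.79 (adjusted p = 0.00664). In this design 18/1 5 hr and 90/5 2 hr are the conditions of slide 2, so that slide and condition cannot be told apart in this test, and for Scn1a it includes array 5.

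Scn3b read 13.23 in 18/1 2 hr replicate 3, apart from the next sample at 12.75, and the gap was 0.878 of the range of the 4 samples, above Dixon's critical value for groups of 4. It was the only one of 45 groups of samples past that value, which chance alone passes in about 5% of groups.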

How the results depend on the processing

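Of 4344 member differences recomputed under the alternatives, 4287 kept their side of the threshold (245 of them, not called, changed sign), 22 lost a call, 24 gained one and 11 with a call turned direction. Scn8a and Scn1a are the calls of the main fit. Counts of genes called moved as follows. Leaving out saturated probes removes Scn8a and Scn10a (7 genes left) and leaving out repeat probes removes Scn8a (8 left), so that their counts lack Scn8a by construction. The other causes were not tested. At 18/1 5 hr against unstimulated neurons the count of 2 became 4 with centring on medians alone and 3 with no array block or the unadjusted t-test (Scn4b added). It became 1 with no filter, means of arrays, only the conditions compared or a trend on GC content removed (Scn1a lost), 1 with saturated or repeat probes left out (Scn8a removed), and 0 with another probe of the same gene or the methods' t-test after Benjamini-Hochberg. At 90/5 2 hr against unstimulated neurons the count of 1 became 0 with saturated probes left out, another probe, the adjusted t-test or repeat probes left out, and 2 with no array block or the unadjusted t-test. Weights for array quality gave 3 at 18/1 2 hr, 3 at 90/5 5 hr and 2 at 90/5 5 hr against 18/1 2 hr, where the main count was 0, and called 14.6%, 25.4% and 12.9% of all probes there. Between patterns at 2 hr the count of 1 became 0 with saturated probes left out, another probe, the adjusted t-test or repeat probes left out. At 5 hr the count of 2 became 4 with median centring or the GC trend, 1 with saturated or repeat probes left out, and 0 with another probe or the adjusted t-test. The filter within 1 condition and the background rule alone each added Scn3a at 5 hr. Within 18/1 the count of 2 became 4 with the GC trend, 1 with saturated probes left out, the adjusted t-test or repeat probes left out, and 0 with another probe. Weights for array quality added Scn11a within 18/1. Within 90/5 the count of 1 became 2 with no array block and 0 with saturated probes left out, another probe, the adjusted t-test or repeat probes left out. At 90/5 2 hr against 18/1 5 hr the count of 0 became 2 with median centring (Scn1a and Scn4b) and 1 with the unadjusted t-test (Scn11a). The shares of all probes that passed the unadjusted t-test are not given here, so that counts with it have no background beside them. Leaving out 1 sample or array gave 1 to 2 in the 3 comparisons of 18/1 5 hr with another slide, 0 to 1 against 90/5 2 hr, and the main count elsewhere.

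Differences that turned were those of Scn8a with another probe (-0.11 at 18/1 5 hr against unstimulated neurons, 0.26 between patterns at 5 hr, -0.19 within 18/1 and 0.064 within 90/5), Scn1a with another probe (0.055 at 18/1 5 hr against unstimulated neurons), Scn10a with median centring (-0.94 at 18/1 5 hr against unstimulated neurons, 1.14 between patterns at 5 hr), Scn4b with the GC trend (-0.90 between patterns at 5 hr, 0.86 within 18/1), and Scn3a between patterns at 5 hr with the filter within 1 condition or the background rule alone (-1.27).

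With the replicate block, possible among unstimulated, 18/1 2 hr and 90/5 5 hr samples, 0 of 9 genes were called in each of the 3 comparisons, as without it, beside 7, 359 and 148 probes in all. Of 12 same-numbered pairs 9 had a correlation of deviations above 0.1 (-0.07 to 0.70), and odd and even numbers also mark the colours. Dim probes of Scn8a and Scn3a, near background, limit what can be seen of those genes.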
